A study of Canis lupus familiaris with 12 samples.

Results

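The comparison is the diet difference in the cerebral cortex of young dogs: 3 dogs on a plant-protein based diet (PPB) against 3 dogs on an animal-protein based diet (APB), chosen by their sample titles. These 6 female beagles are 6 of the 12 dogs of the study, with 1 expression array per dog; the other 6, old dogs with 3 on each diet, enter the filter on low values and the estimate of the spread between dogs, and their own diet difference is set beside the young one. Young dogs entered at a mean age of 8 weeks, ate freely for 12 months and were sampled at 1 year. Old dogs entered at 11.1 years, were fed to hold their body weight over the same 12 months and were sampled at 12 years. The APB diet was built on poultry by-product meal, poultry fat and rice and held 28% protein, 23% fat and 5% fibre. The PPB diet was built on soybean meal, corn and wheat middlings and held 26% protein, 11% fat and 15% fibre; it also contained meat and bone meal, so its protein was not wholly from plants. Energy density was 5.38 kcal/g in APB and 4.75 kcal/g in PPB. Dogs ate 166 g (893 kcal) of APB or 237 g (1123 kcal) of PPB a day, figures the submitters give without splitting them by age. Every dog was fasted for 12 hours before death. Protein source, fat, fibre, energy density and intake all differed between the diets, so their parts cannot be told apart. All 6 young dogs were of 1 breed and 1 sex.

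The cerebral cortex holds neurons, the oligodendrocytes that wrap axons in myelin, astrocytes that supply and buffer neurons, and microglia, the resident immune cells. After weaning the canine brain still lays down myelin and refines its synapses. Diet provides its essential amino acids and fatty acids, while most brain cholesterol is made locally. The samples were pieces of whole tissue, so fewer cells of a type and less RNA per cell cannot be told apart.

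Values are log2 intensities summarised with GCRMA, which estimates background from the base composition of the probes, normalizes the arrays and reports 1 value for each probe set, a group of probes read together. Of 23836 non-control probe sets, 10835 reached a log2 value of 4 on at least 3 of the 12 arrays and were tested. Pearson correlations between young arrays ran from 0.962 to 0.989, and the mean was 0.980 both within a diet and between diets. The array of PPB dog 3 stood apart: its values lay 0.39 (log2) on average from those of the other young arrays, against 0.18 to 0.25 for the other 5 dogs. The actin 3′ minus 5′ probe difference, which grows as RNA is degraded or shortened, was 1.03, 1.15 and 1.11 in APB dogs and 1.12, 1.29 and 1.68 in PPB dogs 1, 2 and 3. The diets' means differed by 0.27 on that measure, with a two-sided exact permutation p of 0.2 and an adjusted p of 0.4 over 4 array measures; 3 dogs against 3 cannot go below 0.1. The same measure for GAPDH was -0.01, -0.08 and 0.13 in APB dogs and 0.06, 0.13 and 0.16 in PPB dogs. Its means differed by 0.10 in the same direction, with an exact permutation p of 0.2 and an adjusted p of 0.4. Values without PPB dog 3, or without another dog, are given beside many of the results that move with one dog, and the part of RNA quality in the results was not tested.

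No probe set passed the test for diet in young cortex. limma's moderated test with Benjamini-Hochberg adjustment called 0 of 10835 probe sets (0%) at an adjusted p under 0.05, and the smallest adjusted p was 0.197. At an unadjusted p under 0.05 there were 538 probe sets (4.97%), of which 177 (1.63%) were higher and 361 (3.33%) lower in PPB dogs. The 3 PPB dogs lay above all 3 APB dogs at 378 probe sets (3.49%) and below them at 756 (6.98%). With no difference between the diets, 5% of probe sets are expected at an unadjusted limma p under 0.05, and 4.97% is near that. Full separation of 3 dogs against 3 in either direction then has an expected share of 0.1. The observed shares above and below together lie near it. More probe sets separated the diets downward than upward, although the median difference over all of them was -0.01 (log2, PPB minus APB) and 51.6% were lower.

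With 3 dogs a group, precision limits what could be seen. The median standard error (SE) of a difference was 0.20, and the median half-width of its 95% confidence interval was 0.43. For 9513 probe sets (87.8%) the whole interval lay within 2-fold in either direction, and for 5081 (46.9%) within 1.5-fold. Large measured differences were few: 20 probe sets were at least 2-fold higher and 20 at least 2-fold lower in PPB dogs. Of these 40, the diets did not overlap at 21, and 22 were still 2-fold apart without PPB dog 3. The smallest p in the data belonged to probe set 1596920_s_at, which has no gene symbol in the annotation. It read 5.88, 5.93 and 5.97 in APB dogs and 4.90, 4.75 and 5.01 in PPB dogs, a difference of -1.04 ± 0.15 (SE). All 3 PPB dogs sat well below the APB dogs there, and its adjusted p was the 0.197 given above.

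**Figure D1:**
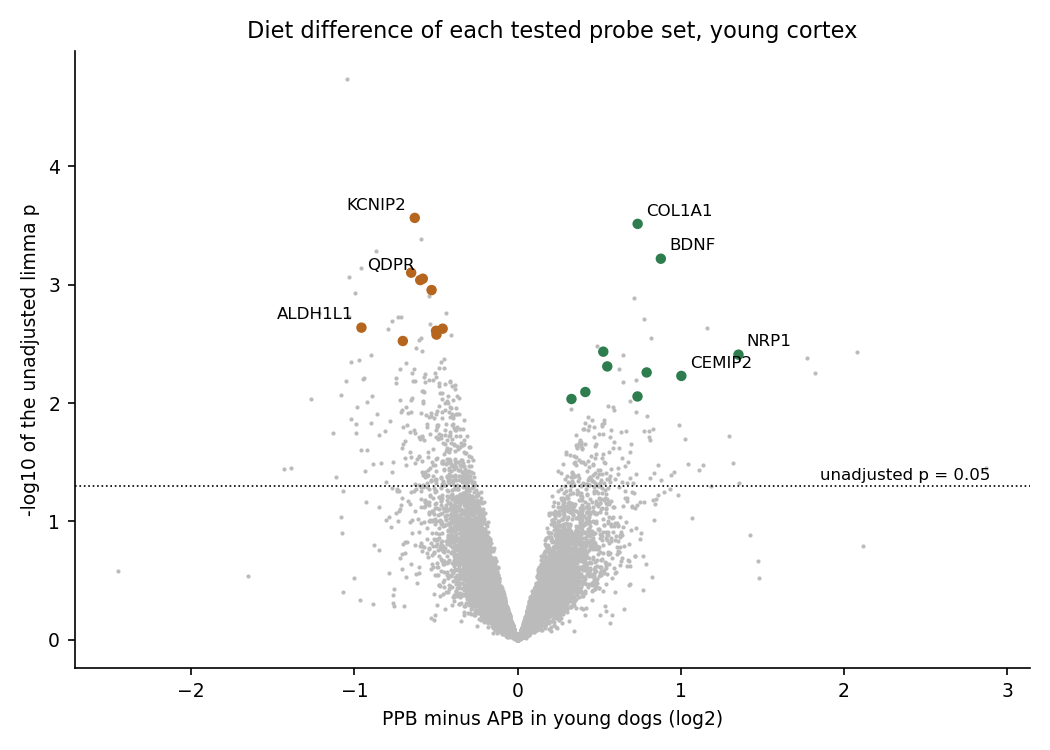
Each grey point is 1 of the 10835 tested probe sets: the horizontal axis gives the log2 difference PPB minus APB in young dogs, and the vertical axis the -log10 of limma's unadjusted p. Green and brown points are the 10 named genes with the smallest p on each side; 538 points lie above the dotted line at an unadjusted p of 0.05, and none passed the adjusted threshold.

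Genes are named below by 1 probe set each, that with the highest mean; 4527 genes had one. The genes described first are the 10 with the smallest p in each direction. That choice used this same contrast, so the lack of overlap between their diets is no support for them, and their adjusted p ran from 0.899 to 0.952.

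On the higher side, COL1A1, the alpha 1 chain of type I collagen, came first. It read 4.08, 3.91 and 3.89 in APB dogs and 4.40, 4.80 and 4.89 in PPB dogs, so that every PPB dog was above every APB dog. The difference was 0.74 ± 0.14 (SE), or 1.66-fold, with a 95% interval from 0.42 to 1.05 and an adjusted limma p of 0.899. All 6 values lay close to the filter level of 4, where folds may be understated. BDNF, brain-derived neurotrophic factor, which supports neuronal survival and synaptic plasticity, read 4.30, 4.33 and 4.51 with APB and 5.12, 4.96 and 5.71 with PPB. The APB values of BDNF also lay close to the filter level. Its difference was 0.88 ± 0.18 (SE), or 1.84-fold, with an interval from 0.47 to 1.28; a further BDNF probe set differed by 0.44 in the same direction, with diets that overlapped. NRP1, neuropilin 1, a receptor for semaphorins and vascular endothelial growth factor, had the largest difference of the 10. It was the only tested probe set that reached the filter level of 4 in the young PPB dogs alone, so it was tested only because it was high there and supports nothing. It read 3.32, 3.30 and 3.53 in APB dogs and 4.08, 4.27 and 5.87 in PPB dogs. PPB dog 3 held much of that gap: the difference was 1.35 ± 0.37 (SE) with it and 0.79 without it.

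CASK, a scaffold protein of synaptic membranes, was among the more strongly expressed of the 10. It read 9.35, 9.41 and 9.49 in APB dogs and 9.88, 9.83 and 10.12 in PPB dogs, a difference of 0.52 ± 0.14 (SE). CAP2, which binds actin and actin-severing factors, read 11.19, 11.05 and 11.14 against 11.56, 11.48 and 11.59, a difference of 0.42 ± 0.13 (SE). Both pairs of groups were tight, with the dogs of a diet within 0.3 of each other. CHL1, a neural cell adhesion molecule related to L1, read 8.04, 7.67 and 8.42 with APB and 8.67, 8.52 and 9.15 with PPB, and differed by 0.73 ± 0.23 (SE). CEMIP2, which degrades hyaluronan at the cell surface, read 4.66, 3.80 and 5.04 against 5.11, 5.46 and 5.94, a difference of 1.00 ± 0.29 (SE). The lowest PPB dog for CEMIP2 was only just above the highest APB dog. LYZ, lysozyme, made by macrophages and microglia, read 4.92, 4.88 and 4.85 against 5.53, 6.22 and 5.27, with PPB dog 2 highest. The remaining members of this set were NWD2, with a difference of 0.55 ± 0.16 (SE), and SREK1IP1, with 0.33 ± 0.10 (SE).

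On the lower side, KCNIP2 had the smallest p of any named gene. It encodes a calcium-binding subunit of the Kv4 channels that carry transient potassium current. Its log2 values were 10.54, 10.58 and 10.41 in APB dogs and 9.97, 9.82 and 9.84 in PPB dogs. The 2 groups were tight and apart, with a difference of -0.63 ± 0.12 (SE), or 1.55-fold, an interval from -0.89 to -0.37 and an adjusted limma p of 0.899. PDLIM1, a cytoskeletal adaptor with PDZ and LIM domains, read 8.19, 8.16 and 8.14 with APB and 7.51, 7.65 and 7.37 with PPB. The APB dogs agreed within 0.1 and the difference was -0.65 ± 0.14 (SE). QDPR, quinoid dihydropteridine reductase, which recycles the cofactor of aromatic amino acid hydroxylases and is abundant in oligodendrocytes, read 12.14, 12.08 and 12.11 against 11.31, 11.64 and 11.64. Its difference was -0.58 ± 0.13 (SE), and all 4 of its probe sets were lower in PPB dogs, from -0.29 to -0.59.

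ALDH1L1, a folate enzyme used as an astrocyte marker, had the largest difference of the 10 on this side. It read 6.68, 7.21 and 6.73 in APB dogs and 5.93, 6.18 and 5.62 in PPB dogs, a difference of -0.96 ± 0.24 (SE), or 1.94-fold. Its other probe set had the same sign. BCKDK, the kinase that switches off the branched-chain ketoacid dehydrogenase, read 8.20, 8.02 and 7.99 with APB and 7.67, 7.69 and 7.35 with PPB, a difference of -0.50 ± 0.13 (SE). MCCC2, a subunit of the leucine-catabolic methylcrotonyl-CoA carboxylase, read 4.40, 4.54 and 4.92 against 3.87, 3.97 and 3.91, a difference of -0.70 ± 0.19 (SE). MCCC2 lay at the edge of the filter, with all 3 PPB dogs under a log2 value of 4. The others were FEZ1, a kinesin adaptor of axonal transport, at -0.53 ± 0.12 (SE), SHISAL2A at -0.60 ± 0.13 (SE), the phospholipase PLAAT3 at -0.50 ± 0.13 (SE) and the cysteine protease BLMH at -0.46 ± 0.12 (SE).

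**Figure D2:**
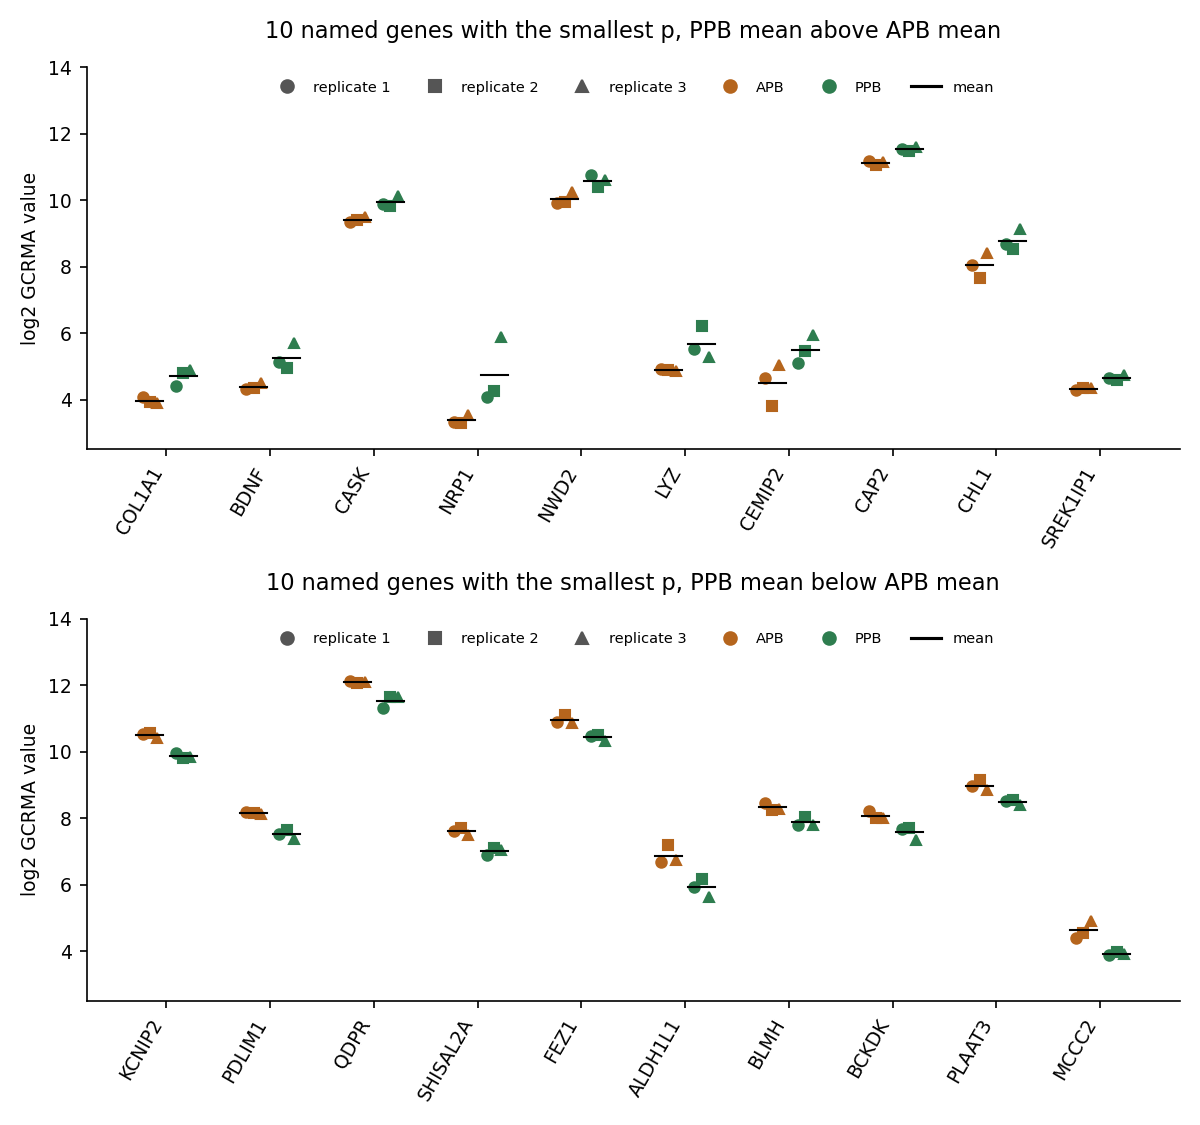
Log2 GCRMA values of the 10 named genes with the smallest p on each side; each point is 1 young dog, brown for APB and green for PPB, the symbol gives the replicate number and the black line is the group mean. The diets do not overlap for any of the 20, which follows from how they were picked, and for NRP1 PPB dog 3 (green triangle) stands above the other PPB dogs, at 5.87.

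The gene lists below show how related genes stood together. The lists and their members were chosen with earlier results of these data known, so they describe and do not test. Most members named in them are the up to 4 of a list with the smallest p in this same contrast. The lack of overlap of those members is no support for them or for their list. Over all 4527 named genes the median difference was -0.03, 57.1% were lower in PPB dogs, and the PPB dogs lay below all APB dogs for 401 genes (8.86%) and above them for 131 (2.89%). At an unadjusted limma p under 0.05, 195 genes (4.31%) were lower and 52 (1.15%) higher. These shares are the background for each list. None of the 568 different genes measured in the lists passed the adjusted test. Of the 36 lists with at least 5 measured members, 21 kept the sign of their median as each young dog was left out in turn. The other 15 changed sign: neurons, interneurons, endothelial cells, insulin and mTOR, thyroid and retinoid signalling, heat shock, chromatin, synaptic vesicles, ion channels, calcium signalling, growth factors, immediate early genes, cell cycle, apoptosis and the circadian clock. Only the myelin, microglial and glucocorticoid medians stayed within 1.5 times of their value with all dogs as dogs were left out. Where the processing was varied instead, the microglial median ran from -0.41 to -0.10. The myelin median then ran from -0.58 to -0.52 and the glucocorticoid median from -0.24 to -0.22.

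Oligodendrocyte and myelin genes had the lowest median of these 36 lists. The list names 23 genes, of which 8 had a symbol in the annotation and were measured. QDPR, picked above by its p in this contrast, is 1 of the 8. All 8 measured members were lower in PPB dogs, 6 of them with no overlap between the diets and 5 with an unadjusted limma p under 0.05, and their median difference was -0.58. Averaged over the 8 genes, APB dogs read 9.89, 10.22 and 10.17 and PPB dogs 9.61, 9.54 and 9.42. Every PPB dog was thus under every APB dog in the list's mean level. The median stood at -0.62 without PPB dog 3, and from -0.68 to -0.44 as each young dog was left out in turn.

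MAG, myelin-associated glycoprotein of the innermost myelin layer, read 10.54, 10.68 and 10.68 in APB dogs and 9.86, 9.71 and 10.28 in PPB dogs. Its difference was -0.68 ± 0.19 (SE), with a 95% interval from -1.10 to -0.26 and an adjusted limma p of 0.952. GJB1, the gap junction protein connexin 32 of oligodendrocytes, read 6.62, 6.63 and 6.58 against 5.87, 5.80 and 5.32, a difference of -0.94 ± 0.28 (SE). The APB dogs were almost identical for GJB1 and the PPB dogs all lower. ENPP2, or autotaxin, which makes lysophosphatidic acid and is secreted by oligodendrocytes, read 10.52, 11.08 and 10.85 with APB and 10.35, 10.04 and 10.45 with PPB. CRYAB, a small heat shock protein abundant in oligodendrocytes, read 10.82, 11.53 and 10.90 against 10.70, 10.49 and 10.05. Their differences were -0.53 ± 0.18 (SE) and -0.67 ± 0.22 (SE), but 1 of the 3 CRYAB probe sets had the opposite sign. MAL, a proteolipid of compact myelin, read 8.51, 9.03 and 8.68 with APB and 7.94, 8.27 and 8.29 with PPB, with groups that did not overlap and an interval from -1.19 to 0.05.

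MBP, myelin basic protein, one of the major proteins of compact myelin, was among the members whose diets overlapped. It read 14.33, 14.72 and 14.70 in APB dogs and 14.58, 14.39 and 13.75 in PPB dogs, and its difference of -0.34 ± 0.19 (SE) became -0.10 without PPB dog 3. ENPP6, a choline phosphodiesterase of newly forming oligodendrocytes, read 5.69, 6.03 and 6.87 against 6.24, 6.00 and 5.60. Its difference of -0.25 ± 0.28 (SE) rested on single dogs, and was 0.087 without APB dog 3. Of 7 oligodendrocyte precursor genes, 1 had a probe set with 1 symbol in the annotation, and none was measured above the filter.

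**Figure D3:**
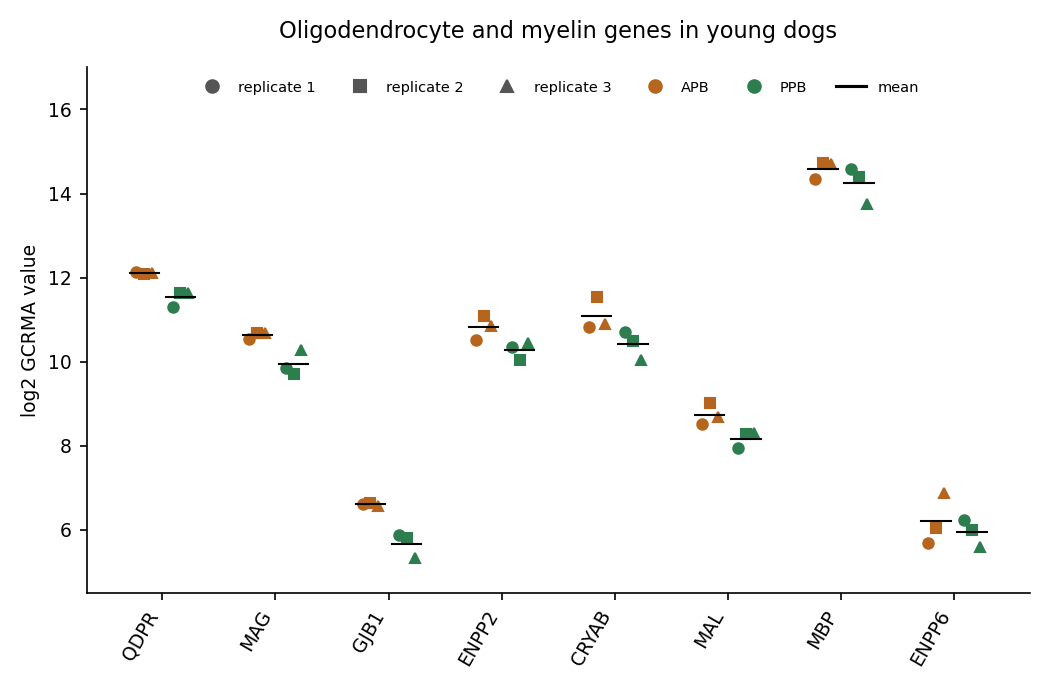
Log2 GCRMA values of the 8 measured oligodendrocyte and myelin genes; each point is 1 young dog, brown for APB and green for PPB, the symbol gives the replicate number and the black line is the group mean. The PPB mean lies under the APB mean for all 8, and the diets overlap for MBP and ENPP6 but not for the other 6.

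Microglial and macrophage genes stood lower as well, with 1 clear exception. Of 9 measured members 7 were lower in PPB dogs, 4 of them without overlap, and the median was -0.37, or -0.25 without PPB dog 3. LAPTM5, a lysosomal membrane protein of blood-lineage cells, read 6.49, 6.73 and 6.61 with APB and 6.23, 5.99 and 5.64 with PPB, a difference of -0.65 ± 0.26 (SE). C1QA, a chain of the complement component C1q that microglia make, read 8.33, 8.53 and 8.25 against 7.73, 8.06 and 7.78. Its diets did not overlap, and its difference was -0.51 ± 0.27 (SE). AIF1, the microglial marker IBA1, overlapped, at -0.34 ± 0.20 (SE) with all dogs and -0.15 without PPB dog 3. LYZ was the exception, at 0.79 ± 0.23 (SE) in the higher direction.

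Astrocyte genes had a median of -0.24, which became -0.07 without PPB dog 3; 7 of 9 were lower in PPB dogs. ALDH1L1 and S100B were the members without overlap. S100B, a calcium-binding protein of astrocytes that oligodendrocytes also express, read 13.25, 13.35 and 13.29 in APB dogs and 12.86, 12.87 and 13.16 in PPB dogs, a difference of -0.33 ± 0.14 (SE). SLC1A3, the astrocyte glutamate transporter GLAST, lay on the other side at 0.19 ± 0.11 (SE), or 0.11 without PPB dog 3. The list's members did not share a direction. Pan-neuronal genes had a median of -0.20 over 9 members with all dogs and 0.10 without PPB dog 3. NEFH, the heavy neurofilament chain of large axons, read 11.20, 11.28 and 10.97 with APB and 9.74, 10.48 and 10.64 with PPB. PPB dog 1 was lowest for NEFH, and the difference was -0.86 ± 0.29 (SE). The light and medium chains, NEFL and NEFM, differed by -0.20 ± 0.13 (SE) and -0.30 ± 0.25 (SE); without PPB dog 1 NEFM differed by -0.10. SLC17A7, the vesicular glutamate transporter of cortical excitatory neurons, differed by -0.20 ± 0.21 (SE), and by 0.013 without PPB dog 3.

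Inhibitory interneuron genes were near 0, with a median of 0.02 over 8 members and no member without overlap. SST, somatostatin, read 12.00, 11.64 and 11.88 in APB dogs and 12.23, 11.99 and 12.08 in PPB dogs. KCNC1, the Kv3.1 channel of fast-spiking cells, was the lowest member at -0.56 ± 0.25 (SE). Endothelial and pericyte genes had a median of -0.02 over 7 members, all with overlapping diets, and 0.16 without PPB dog 3. ABCB1, the efflux pump of the blood-brain barrier, differed by 0.33 ± 0.15 (SE). None of the 9 listed blood genes had a probe set with 1 symbol in the annotation. That annotation gives no symbol for 13149 probe sets, so the genes may still be on the array.

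Extracellular matrix genes leaned the other way. Of 18 measured members 15 were higher in PPB dogs, 4 of them without overlap and 3 with an unadjusted limma p under 0.05, and their median was 0.21. The median was 0.15 without PPB dog 3 and 0.11 without APB dog 2. FBN1, fibrillin 1 of microfibrils, read 5.41, 5.25 and 5.49 in APB dogs and 5.64, 5.78 and 5.89 in PPB dogs, a difference of 0.39 ± 0.14 (SE). COL1A2, the partner chain of COL1A1, read 9.29, 8.16 and 8.27 against 9.04, 9.25 and 9.33. APB dog 1 sat among the PPB dogs for COL1A2, and its difference was 0.64 ± 0.28 (SE). FBLN2, fibulin 2, overlapped too, at 0.62 ± 0.28 (SE) with all dogs and 0.33 without PPB dog 3. Collagens of this kind come from meningeal and perivascular fibroblasts in the cortex, and the meningeal list, which shares COL1A1, COL1A2, FN1 and DCN with the matrix list, had 4 of 6 members higher and a median of 0.23, which ran from 0.12 (without APB dog 3) to 0.42 (without APB dog 1). PTGDS, prostaglandin D synthase, abundant in the leptomeninges, was not among the higher ones, at -0.24 ± 0.16 (SE), or -0.10 without PPB dog 3. The list's mean level was 8.86, 8.40 and 8.34 in APB dogs and 8.77, 8.87 and 8.71 in PPB dogs, so the diets overlapped through APB dog 1. The part of meningeal tissue in the matrix values was not tested.

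TTR, transthyretin, the thyroid hormone carrier of the choroid plexus, gave probe sets that disagreed in size. The brightest differed by 0.04 ± 0.22 (SE), while the other 3 differed by 2.08, 1.82 and 1.78, among the largest in the data. Probe set 1583116_s_at read 5.87, 6.63 and 4.39 in APB dogs and 6.83, 7.92 and 8.38 in PPB dogs, a difference of 2.08 ± 0.57 (SE) with an adjusted limma p of 0.952. The 3 lower-signal probe sets put PPB dog 3 highest and APB dog 3 lowest. Only 2 of the 10 choroid plexus and ependymal genes listed were measured, 1 higher and 1 lower, so the list describes little.

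Genes of neural development and axon guidance were higher for 12 of 14 members, with 4 above all APB dogs and a median of 0.17. NRP1 is one of the 4 and is also counted in the 12 and in the median. It passed the filter only through the young PPB dogs, and these figures were not recomputed without it. The median ran from 0.07 without APB dog 1 and 0.09 without PPB dog 1 to 0.29 without APB dog 3. GAP43, a growth cone protein of elongating axons, read 10.71, 10.71 and 10.58 in APB dogs and 11.21, 11.03 and 11.17 in PPB dogs, a difference of 0.47 ± 0.16 (SE). SLIT2, a guidance ligand that repels axons, read 9.23, 9.31 and 9.49 against 9.71, 9.50 and 9.74. The diets were barely apart for SLIT2, at 0.31 ± 0.15 (SE). NCAM1, the neural cell adhesion molecule, went against the list: it read 9.34, 9.25 and 9.21 with APB and 8.71, 8.88 and 8.97 with PPB, a difference of -0.41 ± 0.13 (SE).

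Growth factor genes, BDNF among them, gave a mixed picture, with 5 of 13 higher and a median of -0.05, or 0.00 without PPB dog 3. TGFB1, a regulator of glial and immune cells, read 4.90, 4.79 and 5.35 in APB dogs and 4.47, 4.73 and 4.39 in PPB dogs, a difference of -0.48 ± 0.23 (SE). FGFR2, a fibroblast growth factor receptor of oligodendrocytes and astrocytes, differed by -0.26 ± 0.14 (SE) at its brightest probe set. Its other 3 probe sets differed by -0.72, -0.72 and -0.90, each without overlap. All 4 FGFR2 probe sets thus had 1 sign, and none passed the adjusted test.

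Ion channel genes had a median of 0.02 over 10 members. KCNA2, the Kv1.2 channel found beside the nodes of myelinated axons, read 10.26, 10.30 and 10.26 with APB and 9.90, 10.00 and 9.80 with PPB. Its 3 APB dogs agreed closely, and the difference was -0.37 ± 0.12 (SE). SCN2A, a sodium channel of excitatory axons, lay the other way at 0.32 ± 0.16 (SE), again without overlap. Synaptic vesicle genes had a median of -0.06 over 11 members, or 0.04 without PPB dog 3, and no member without overlap. DLG2, the postsynaptic scaffold PSD-93, was the only measured gene of its postsynaptic list, at 0.29 ± 0.21 (SE). Appetite and metabolic neuropeptide genes were higher for 8 of 10, with a median of 0.18 and every member's diets overlapping. Among them were SSTR1, a somatostatin receptor, at 0.31 ± 0.19 (SE), or 0.17 without PPB dog 3, CRH, corticotropin-releasing hormone, at 0.35 ± 0.38 (SE), or 0.16 without that dog, and CCK, cholecystokinin, at 0.14 ± 0.16 (SE).

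Genes of energy supply were lower for most members, by small amounts. Oxidative phosphorylation genes were lower for 46 of 50, and their median was -0.17, or -0.11 without PPB dog 3. Of the 50, 9 lay below all APB dogs, against 8.86% of all genes. At an unadjusted limma p under 0.05, 2 of the 50 were lower, near the 4.31% of all genes. NDUFA6, an accessory subunit of complex I, read 11.04, 10.97 and 11.03 in APB dogs and 10.71, 10.90 and 10.59 in PPB dogs, a difference of -0.28 ± 0.12 (SE). CYC1, cytochrome c1 of complex III, read 10.97, 10.70 and 10.66 against 10.37, 10.59 and 10.38, a difference of -0.32 ± 0.14 (SE). Both were without overlap by a small margin. NDUFB5, a further complex I subunit, was on the other side at 0.29 ± 0.14 (SE). Glycolysis genes were lower for 15 of 17 with a median of -0.18, which shrank to -0.08 without PPB dog 3. PKM, pyruvate kinase, went from -0.53 to -0.17. Of the 17, 0 had an unadjusted limma p under 0.05. Citric acid cycle genes were closer to the background, with 11 of 17 lower and a median of -0.06, or -0.07 without PPB dog 3.

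Ribosomal protein genes were lower for 49 of 56. Of the 56, 5 were lower without overlap, a share near the 8.86% of all genes. The list's median of -0.15 was -0.05 without PPB dog 3. RPS21, a small-subunit protein, read 13.75, 13.73 and 13.55 in APB dogs and 13.52, 13.51 and 13.37 in PPB dogs. RPS10 was the member with an unadjusted limma p under 0.05, and it was higher, at 0.61 ± 0.26 (SE), or 0.32 without PPB dog 3. Proteasome and ubiquitin genes were lower for 24 of 33, with a median of -0.13, or -0.04 without that dog. Splicing genes, with a median of -0.03 over 32 members, and chromatin genes, with 0.00 over 18, stood at the background.

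Lipid genes are of interest because the diets differed in fat. Fatty acid metabolism genes were lower for 13 of 20, 3 of them without overlap, and had a median of -0.10, or -0.07 without PPB dog 3. ECHS1, mitochondrial enoyl-CoA hydratase, read 9.28, 9.16 and 8.88 in APB dogs and 8.67, 8.86 and 8.35 in PPB dogs, a difference of -0.48 ± 0.17 (SE). HADHA, of the mitochondrial trifunctional protein, read 8.51, 8.64 and 8.59 against 8.23, 8.33 and 8.19, a difference of -0.33 ± 0.12 (SE). Both act in beta-oxidation. ELOVL2, which lengthens polyunsaturated fatty acids, was lower without overlap at -0.30 ± 0.16 (SE). PPARA, the fatty acid sensing receptor, differed by 0.55 ± 0.27 (SE) and by 0.18 without PPB dog 3, and its 2 probe sets had opposite signs. Cholesterol genes had a median of -0.02 over 13 members, or -0.10 without PPB dog 3, with members apart in both directions. HMGCS1, an early enzyme of the synthesis pathway, read 11.81, 11.77 and 12.02 with APB and 12.11, 12.20 and 12.38 with PPB, a difference of 0.36 ± 0.19 (SE). NSDHL, a later enzyme of the same pathway, and NPC2, which exports cholesterol from lysosomes, were lower without overlap, at -0.36 ± 0.15 (SE) and -0.42 ± 0.18 (SE); without PPB dog 3 NSDHL differed by -0.23.

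Among hormone and nutrient signals, glucocorticoid-responsive genes were lower for 12 of 14, with a median of -0.24, and -0.26 without PPB dog 3. HSD11B1, which regenerates active glucocorticoid, read 8.85, 9.52 and 8.40 in APB dogs and 7.43, 8.84 and 7.11 in PPB dogs. PPB dog 2 lay within the APB range, and the difference was -1.13 ± 0.41 (SE). TSC22D3, the glucocorticoid-induced leucine zipper, read 9.89, 10.31 and 9.85 against 9.73, 9.63 and 9.51, a difference of -0.39 ± 0.18 (SE). CDKN1A, the cell cycle inhibitor p21, went the other way, with 9.27, 8.20 and 8.86 in APB dogs and 9.41, 9.73 and 10.27 in PPB dogs. Its difference of 1.03 ± 0.38 (SE), or 2.04-fold, was the largest in the list on that side. NFKBIA, the inhibitor of NF-kappa B, read 8.76, 8.76 and 8.73 with APB and 8.19, 8.57 and 7.53 with PPB. It differed by -0.66 ± 0.24 (SE), or -0.37 without PPB dog 3.

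Thyroid, vitamin and retinoid genes had a median of 0.02 over 9 members, or -0.15 without PPB dog 3. CRABP1, which binds retinoic acid in the cytoplasm, was an exception, with 9.16, 8.33 and 9.55 in APB dogs and 8.28, 7.86 and 8.02 in PPB dogs. The PPB dogs lay just under the lowest APB dog, at -0.96 ± 0.37 (SE). Insulin, mTOR and energy sensing genes had a median of 0.01 over 14 members, or -0.06 without PPB dog 3, none of them without overlap. MTOR, the nutrient-sensing kinase, differed by 0.38 ± 0.43 (SE) and by -0.11 without PPB dog 3. Amino acid and one-carbon genes were lower for 11 of 15, with a median of -0.14, or -0.04 without PPB dog 1; AHCY, which clears S-adenosylhomocysteine, was the only one without overlap, at -0.28 ± 0.16 (SE). Antioxidant genes were lower for 18 of 21 with a median of -0.20, or -0.08 without PPB dog 3. HMOX2, the constitutive haem oxygenase, was among the 2 without overlap, at -0.33 ± 0.16 (SE). Those 2 of 21 were near the 8.86% of all genes that were lower without overlap.

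Inflammation genes were lower for 7 of 8, with a median of -0.16. TLR4, the receptor for bacterial lipopolysaccharide, read 4.82, 4.67 and 4.83 in APB dogs and 4.52, 4.52 and 4.22 in PPB dogs, a difference of -0.36 ± 0.15 (SE). Complement and antigen presentation genes were lower for 14 of 20, with a median of -0.11, or -0.05 without APB dog 2. C3, the central complement component, differed by -0.55 ± 0.27 (SE), or -0.31 without PPB dog 3, with overlap, and all 6 of its probe sets were lower in PPB dogs. Immediate early genes, which report recent neuronal activity, had a median of 0.16 over 7 members, all overlapping, and -0.02 without APB dog 2. The remaining lists with at least 5 measured members had medians near the background. They were -0.04 for heat shock over 31, -0.07 for autophagy and lysosome over 17 and 0.06 for calcium and cyclic AMP signalling over 14. Apoptosis and DNA repair stood at 0.01 over 12, cell cycle at -0.07 over 5 and the circadian clock at 0.04 over 5. Single members stood apart from these medians. Of the 31 heat shock genes, 3 lay above all APB dogs, against 2.89% of all genes, and 2 lay below them. Of the cell cycle genes, CDKN1A lay above all APB dogs, at 1.03, and CDKN2C below them, at -0.35. Without PPB dog 3 the cell cycle and clock medians were -0.27 and -0.10. BHLHE41, a clock repressor, was the only clock gene without overlap, at -0.34 ± 0.14 (SE).

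**Figure D4:**
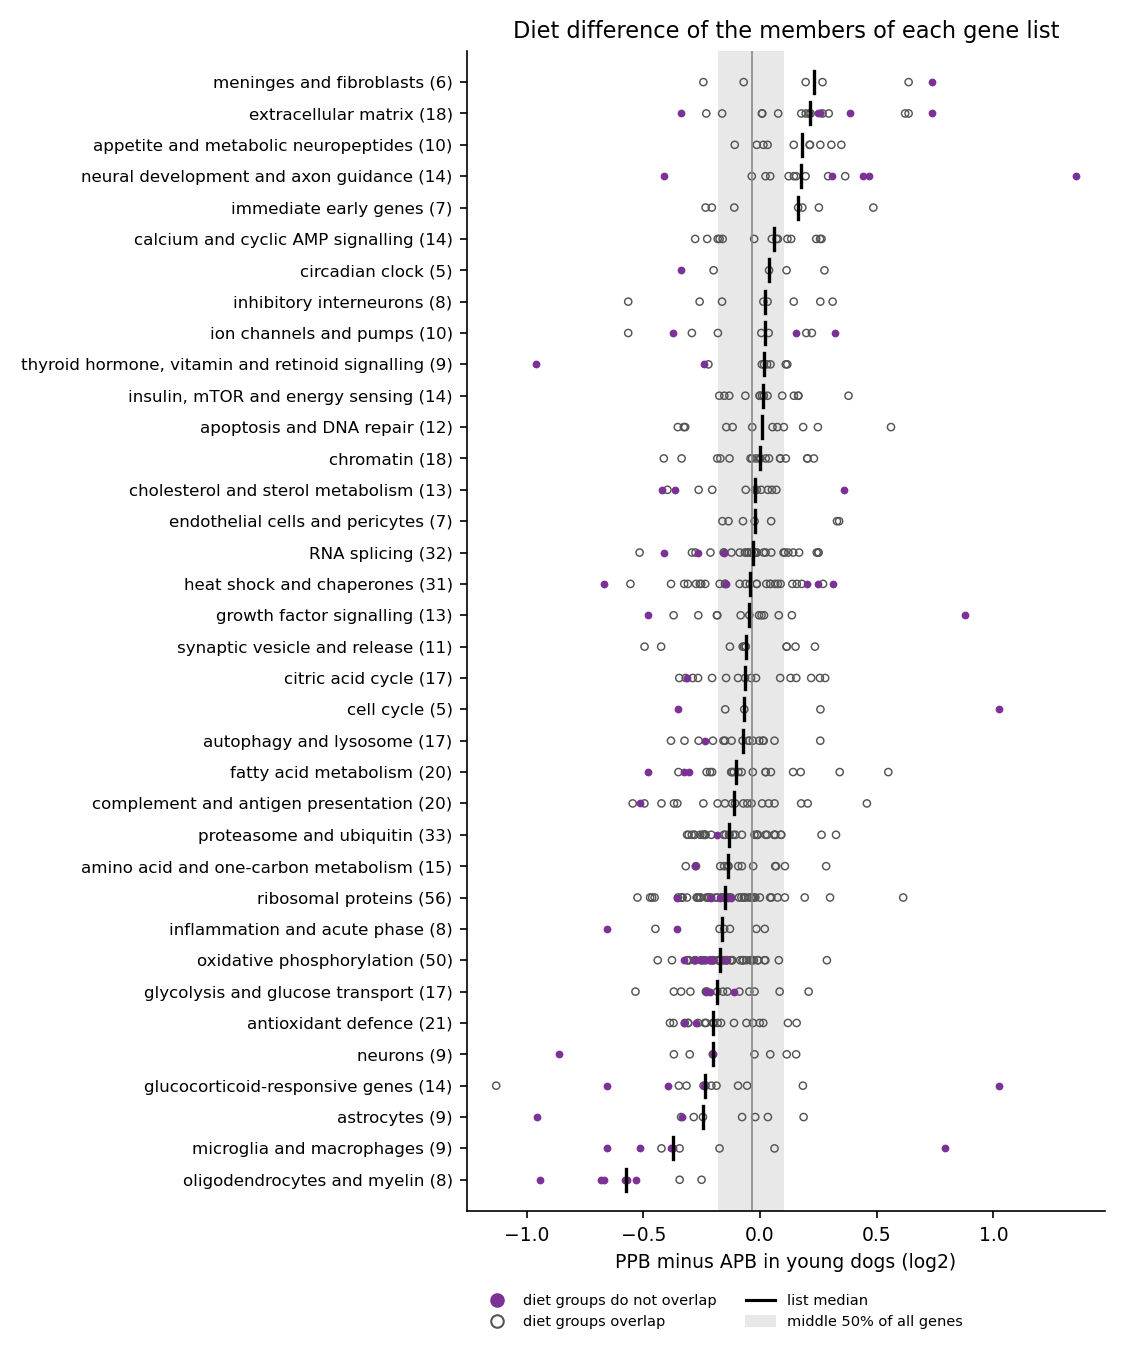
Each row is 1 gene list with at least 5 measured members (number in brackets), and each circle is the log2 difference PPB minus APB of 1 member in young dogs; filled circles are members whose diets do not overlap, the black bar is the list median, and the grey band holds the middle 50% of all 4527 genes. Oligodendrocyte and myelin genes have the lowest median, -0.58, and meningeal and extracellular matrix genes the highest, 0.23 and 0.21.

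The diet difference in old dogs, which were fed to hold their body weight, is set beside that in young dogs, which ate freely. limma called 0 of 10835 probe sets (0%) for diet in old dogs too, with 502 (4.63%) at an unadjusted p under 0.05 and a smallest adjusted p of 0.921. Across the 10835 probe sets the diet differences at the 2 ages had a Pearson correlation of 0.44 and a Spearman correlation of 0.48. The 2 comparisons share no dog, but probe sets are not independent and all arrays share 1 platform and 1 normalization, so this is a description. Of the 756 probe sets at which young PPB dogs lay below all young APB dogs, 133 (17.6%) were also below in old dogs, which is 19.6% of the old list of 677 (6.25% of those tested). In the upward direction 35 were shared, 9.26% of the young list of 378 and 10.3% of the old list of 341 (3.15%). Only 3 probe sets were above in young and below in old, and 3 the reverse.

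Myelin genes were on the same side at both ages, in a list chosen with earlier results of these data known. In old dogs all 8 were again lower with PPB, with a median of -0.44 and 4 without overlap (MAG, ENPP2, CRYAB and MBP), against 348 of all 4527 genes (7.69%) below in old dogs. The mean level of the list was 10.72, 10.68 and 10.46 in old APB dogs and 10.25, 10.06 and 10.36 in old PPB dogs. The diets did not overlap at either age. GJB1 differed by -0.94 in young and -0.86 in old dogs, MAG by -0.68 and -0.48, and ENPP2 by -0.53 and -0.52. QDPR, at -0.58 in young and -0.15 in old dogs, and MBP, at -0.34 and -0.10, were closer to 0 in old dogs. Microglial genes also had lower medians with PPB at both ages, -0.37 in young and -0.44 in old dogs. LAPTM5 differed by -0.65 and -0.61 and C1QA by -0.51 and -0.74. The list's mean level overlapped in old dogs, at 7.99, 7.35 and 7.41 with APB and 7.33, 6.83 and 7.36 with PPB. Old APB dog 1 was the highest. TLR4 was lower without overlap at both ages, at -0.36 in young and -0.83 in old dogs. Its young values lay close to the filter level of 4.

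Of the 36 lists, 18 had a median further from 0 in young and 18 in old dogs. The extracellular matrix median was 0.21 in young and 0.05 in old dogs, and that of neural development 0.17 and 0.04. Complement and antigen presentation went the other way, at -0.11 in young and -0.46 in old dogs, as did inflammation, at -0.16 and -0.32. Old APB dog 1 stood highest in the mean level of both lists. For complement it read 8.99, against 8.25 and 8.16 in the other old APB dogs and 8.11, 7.60 and 8.31 in old PPB dogs. For inflammation it read 7.29, against 6.76 and 6.72 with APB and 6.59, 6.57 and 6.61 with PPB. The old medians were not recomputed without that dog. Genes picked for the smallest p in young dogs are likely to differ less in old dogs through that choice alone. Among them COL1A1 differed by 0.74 in young and 0.11 in old dogs, BDNF by 0.88 and 0.26, and KCNIP2 by -0.63 and -0.10. These gaps between ages did not pass the test of the difference itself. limma's age by diet interaction called 0 of 10835 probe sets (0%), with 125 (1.15%) at an unadjusted p under 0.05 and a smallest adjusted p of 1.00. The 5 named genes with the smallest interaction p were DDB1, a damaged-DNA binding protein, KCNIP2, COL1A1, AIFM2, a suppressor of ferroptosis, and LOC480601. DDB1 read 5.80, 5.70 and 5.63 in young APB dogs and 5.26, 5.51 and 5.24 in young PPB dogs, a difference of -0.37 ± 0.12 (SE), against 0.22 in old dogs. AIFM2 differed by -0.41 in young and 0.45 in old dogs, and LOC480601 by 0.25 (0.49 without PPB dog 3) and -1.12. With 3 dogs in each group, a difference in diet response between the ages was not detectable at any tested probe set.

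**Figure D5:**
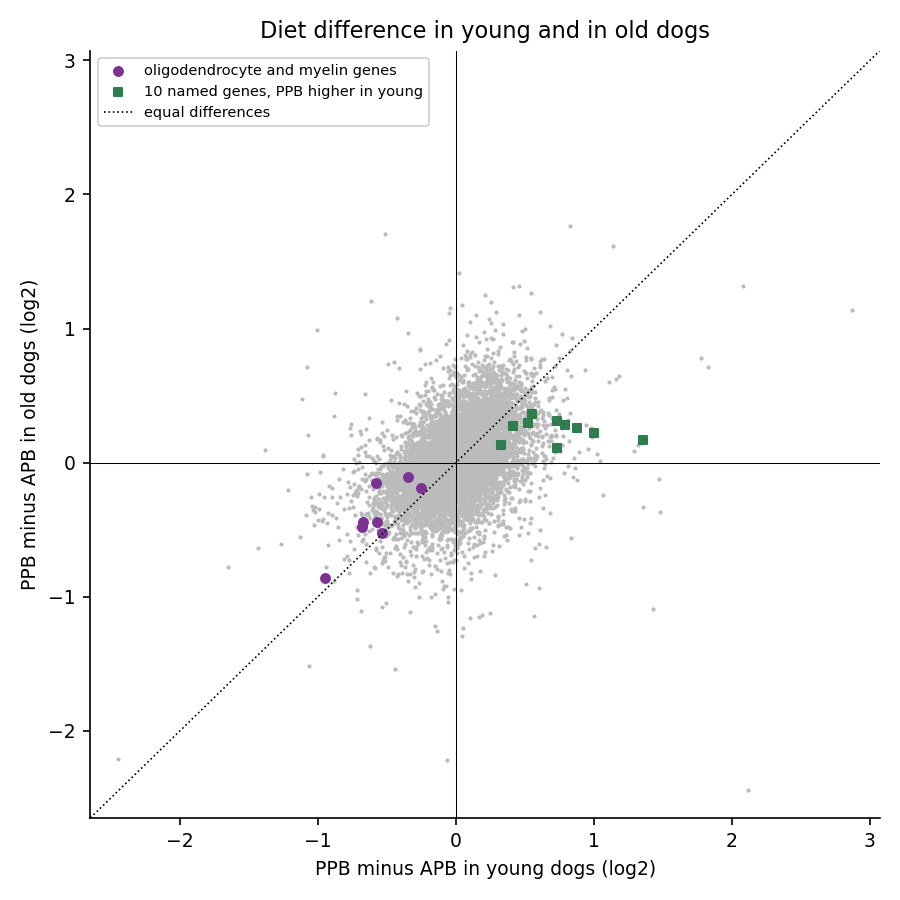
Each grey point is 1 of the 10835 tested probe sets: the horizontal axis gives the log2 difference PPB minus APB in young dogs and the vertical axis the same in old dogs. Purple circles are the 8 oligodendrocyte and myelin genes, all below 0 at both ages. Green squares are the 10 named genes with the smallest p among those higher in young PPB dogs. They reach 1.35 (NRP1) in young and at most 0.36 in old dogs, a gap that their choice by the young contrast partly builds in.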

How the data were processed

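Total RNA was extracted with Trizol, per the labels' protocols. The deposited values are GCRMA values on a log2 scale, with GCRMA named in the submitters' processing notes and its version not given in the sources used here. They were used as deposited. Control probe sets (77 of 23913) were left out, as were those with a log2 value of 4 or more on fewer than 3 of the 12 arrays. The annotation table of the array paired 10549 probe sets with 1 symbol, 138 with several and 13149 with none; 10046 matched the RefSeq gene table of UU_Cfam_GSD_1.0. No build is named, so no coordinates are given.

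limma 3.58.1 (R 4.3.3) fitted 1 mean per group over all 12 arrays, with 8 residual and 3.01 prior degrees of freedom, two-sided, adjusted by Benjamini-Hochberg over 10835 probe sets. Dogs were the replicates; precision is limited by how few arrays there are. The fit was checked on simulated data. Members and the 45 gene lists were chosen with earlier results of these data known. Named genes were the 10 with the smallest p in each direction, up to 4 a list with the smallest p, the 5 with the smallest interaction p, and defining markers; the unnamed probe set and the lower-signal TTR and FGFR2 probe sets were named after their values were seen. Alternatives varied the filter, normalization, variance model, replicate block, dogs and gene summary.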

Additional observations from a re-analysis of the deposited data

How the results depend on the processing

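The count of called probe sets for diet in young dogs was 0 under all 18 alternatives, with a smallest adjusted limma p from 0.060 (array weights, a fit that stopped before it converged) to 1.00 (without APB dog 2). The interaction count was 0 throughout except 1 with no filter on low values: probe set 1597308_s_at, unnamed, with an old minus young difference of -0.37, an adjusted p of 0.0438 and a highest value of 4.79. Counts at an unadjusted p under 0.05 ran from 301 (without APB dog 2) to 790 (without PPB dog 1) as dogs were left out, against 538 with all. They were 863 with array weights, which gave PPB dog 3 a weight of 0.25, and, with fewer features tested, 260 at 1 probe set per gene and 274 at gene means. The 40 probe sets at least 2-fold apart became 26 under the stricter filter, 8 and 9 over genes, and 41 to 92 as dogs were left out, with 62 and 68 without APB dogs 1 and 3, and 92 and 84 without PPB dogs 1 and 2. List medians moved as well when the processing was varied and no dog was left out. The microglial median ran from -0.41 to -0.10, that of inflammation from -0.17 to -0.01 and that of extracellular matrix from 0.08 to 0.25. Of 100 named genes 96 kept their direction under every alternative. The other 4 reversed as dogs were left out: ENPP6 ran from -0.51 to 0.087 (without APB dog 3), SLC17A7 from -0.39 to 0.013 and MTOR from 0.75 to -0.11 (both without PPB dog 3), and TTR from 0.33 to -0.12, -0.072 and -0.025 (without PPB dog 1, PPB dog 2 and APB dog 3). Dogs with the same replicate number did not deviate together (r of -0.37, 0.39 and -0.04), and the fit with the replicate number as a block called 0 probe sets, with 805 at an unadjusted p under 0.05.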
